A study of Mus musculus with 56 samples.

Results

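The livers described here came from male PP mice, which carry proline on both alleles at residue 446 of GKRP, the regulatory protein of glucokinase (gene Gckr), with or without a glucokinase activator (GKA). They were chosen by sample title: 10 PP livers with 3 mg/kg GKA against 9 of the 10 PP livers without it, 19 of 56 livers sequenced. Mouse 7 of the group without GKA was left out, as the study did on the ground that its expression differed from that of the other mice. All 19 mice belonged to the B6N line into which leucine was introduced at residue 446, and had no leucine allele. All were fed a diet rich in fat and sugar (HFHSD, 45% of the energy as fat, with 10% glucose and 5% fructose in the drinking water) for 20 weeks, the group with GKA receiving it in addition. The untreated group had no stated vehicle, the labels name the activator only by its class and dose, and they give neither route, duration, age nor time of harvest. Livers with leucine on 1 allele (PL) or both alleles (LL), 16 and 20 in all, enter only the tests of whether the effect of GKA differed by genotype.

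Glucokinase (GK) phosphorylates glucose to glucose 6-phosphate in the hepatocyte and sets the rate at which the liver takes up glucose after a meal. GKRP holds GK in the nucleus when glucose is low and releases it to the cytoplasm when glucose or fructose 1-phosphate rises. Activators of GK raise its affinity for glucose, and more glucose 6-phosphate is known to engage the transcription factor ChREBP (gene Mlxipl), whose targets include Pklr, G6pc1, Txnip and the lipogenic enzymes.

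The residue that defines the genotype lies at the end of an exon of Gckr, so the reference sequence around it is shown first. In the coding transcript Gckr-202, of 623 residues, codon 446 is the last codon of exon 15 of 19, on the plus strand of chromosome 5 (GRCm39, codon at 31466275 to 31466277). The stretch chr5:31466254-31466298 is given 5′ to 3′ with the proline codon in capitals, and the bases after it belong to the intron.
Gckr codon 446: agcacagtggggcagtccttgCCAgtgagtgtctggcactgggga
It is the reference sequence from the genome assembly and not one read from these livers.

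The depth did not separate the groups. Reads assigned to genes were 6.61 ± 0.558 M (mega reads) without GKA (SD, n = 9) and 6.73 ± 0.827 M with GKA (SD, n = 10; exact permutation p 0.725, two-sided). Genes with at least 1 read numbered 15618 ± 409 and 15573 ± 542 per mouse (exact permutation p 0.84). The hepatocyte markers (Alb, Ttr, Apoa1 and others, 8 of 8 tested) summed to between 89192 and 129207 counts per mega reads (CPM) over the 19 livers, which fits the tissue named in the labels. Read counts below are CPM scaled by TMM, and values are means ± SD unless another measure is named.

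To find out which genes the activator altered in livers with intact GKRP, 10548 genes were compared between the groups by the quasi-likelihood test of edgeR. A differentially expressed gene (DEG) needed an adjusted p below 0.05 together with a change up to 1.3-fold or more, or down to 0.7-fold or less. There was no DEG (0% of the genes tested), and the smallest adjusted p was 0.865, for Ppp1r13l. At an unadjusted p below 0.05, 157 genes (1.49%) had higher and 219 (2.08%) lower counts with GKA, together 376 genes or 3.56%, where 5% of the genes tested would be 527. DESeq2, the tool of the study, called 2 genes, the ribosomal pseudogene Rpl9-ps4 and the gene model Gm47428. It gave 501 of 23990 genes tested at an unadjusted p below 0.05.

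The median log2 fold change over all genes was 0.00, with 5439 genes above 0 and 5109 below. For 5213 genes (49.4%) the 95% interval of the fold change lay within 1.3-fold in either direction, and for 9985 genes (94.7%) it lay within 2-fold. A change of 2-fold or more was therefore outside the interval for most genes. The spread between mice, as the biological coefficient of variation, was 23.5% without and 26.3% with GKA. Of 10548 genes, 1 had CPM above every mouse without GKA in every mouse with it (0.00948%), and 0 (0%) had CPM below.

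The regulatory protein came first. Gckr (chromosome 5, 31454787 to 31484658) ran from 152 through 176 to 234 CPM without GKA and from 144 through 169 to 200.3 CPM with GKA. This gave a log2 fold change of -0.11 (SE 0.09, 95% interval -0.29 to 0.07, edgeR p 0.207), with mice 2, 3 and 4 above all mice with GKA. With transcript lengths as an offset the value for Gckr was -0.50. Without the offset the interval excluded a change of 1.3-fold upwards. Reads do not give the protein or its position in the cell.

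Transcripts of Gckr differed somewhat more than the gene. The share of Gckr reads on the full-length Gckr-202 was 34.6% in the lowest, 46.3% in the median and 66.1% in the highest mouse without GKA, against 50.0%, 54.1% and 71.0% with GKA. All 10 mice with GKA lay above the mean without it, and the ranges overlapped. The means were 48.4 ± 10.2% and 57.6 ± 7.26% (exact permutation p 0.0365, two-sided; adjusted over the 5 quantities compared in this way 0.183). In TPM, the authors' unit that divides by transcript length, the shares were 23.7 ± 12.0% and 38.4 ± 15.2% (exact permutation p 0.0332). The difference was 9.18 percentage points with all mice. It was 11.4 without PP mouse 9 (exact permutation p 0.00681, adjusted 0.0341), while leaving out any 1 of PP mice 2, 3, 4, 5 and 8 or of mice 15, 16, 17 and 20 brought it to between 7.44 and 8.91 and the unadjusted exact permutation p to between 0.0531 and 0.0749.

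The other reads of Gckr lay mainly on Gckr-207, annotated as retaining an intron, which held 39.7 ± 12.6% without and 34.1 ± 6.93% with GKA, and on the coding transcript Gckr-203 of 372 bases, with 5.87 ± 2.07% and 3.97 ± 2.73%. Gckr-201 had no read in any of the 19 livers. These transcripts overlap, so Salmon splits their reads by a model that also uses fragment length. The length that Salmon took off long transcripts, a measure of the fragments of each library, was 440 ± 122 bases without and 442 ± 135 bases with GKA, and ran from 171 bases in mouse 17 to 681 bases in mouse 15. Its part in the shares was not tested.

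**Figure D1:**
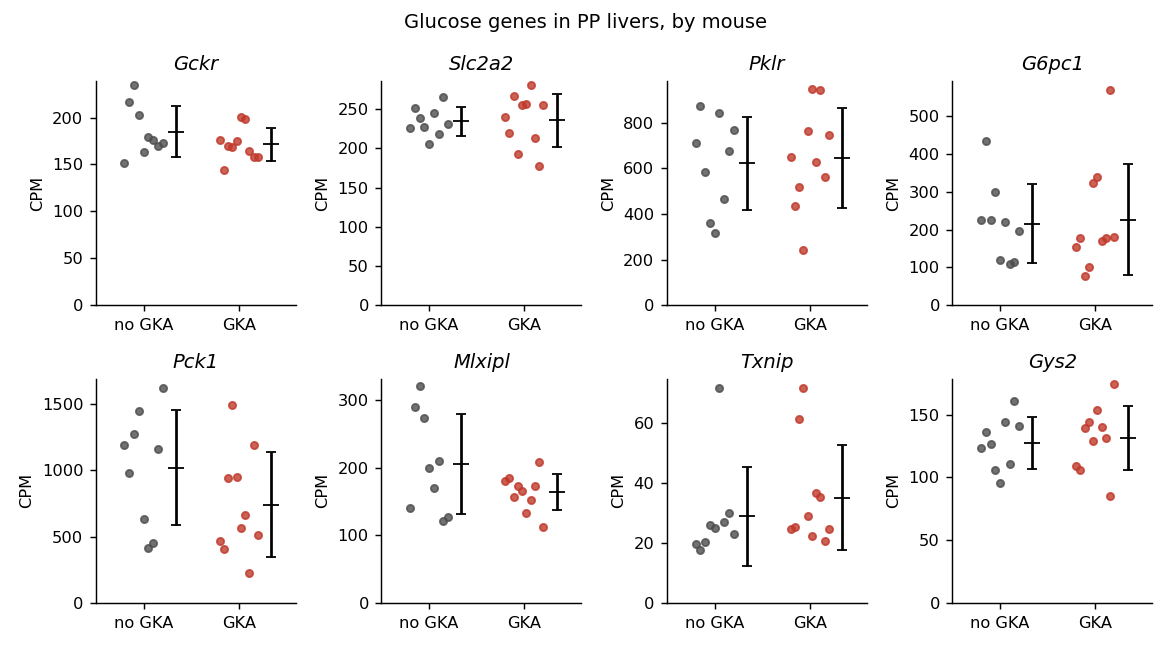
CPM of 8 glucose genes in each PP liver, without GKA (grey, 9 mice) and with GKA (red, 10 mice). Bars are mean ± SD, and each panel starts at 0. The groups overlap in every panel; Mlxipl lies below the mean without GKA in 9 of 10 mice with GKA, and 1 mouse without GKA and 2 mice with GKA stand high for Txnip.

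Lists of genes of glucose phosphorylation, breakdown and storage had medians close to 0. Of the hexose phosphorylation list, 7 of 10 genes were tested, 4 with positive and 3 with negative log2 fold changes (median 0.05), and 0 passed even an unadjusted p below 0.05. The hexokinase genes Hk1, Hk2 and Hkdc1 had at most 16, 12 and 1 reads per mouse and were not tested. Khk, which phosphorylates fructose, had a log2 fold change of 0.05 (SE 0.23), or -0.22 with transcript lengths as an offset, and Galk1, which phosphorylates galactose, of 0.29 (SE 0.15, edgeR p 0.061). Among the 17 glycolytic genes tested 13 were above 0 (median 0.06, range -0.43 to 0.25), and among the 13 glycogen genes 11 (median 0.04), with 0 at an unadjusted p below 0.05 in either. With transcript lengths as an offset the glycolytic median was -0.20, and 3 glycogen genes passed an unadjusted p below 0.05, all lower. Gys2, the liver glycogen synthase, had a log2 fold change of 0.05 (SE 0.12), or -1.02 with transcript lengths as an offset, and Ppp1r3b, which targets the phosphatase that activates it, of -0.25 (SE 0.18, edgeR p 0.175).

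The median of the glucose output genes was also near 0. Of 11 genes tested, 7 were above and 4 below 0 (median 0.01), and 0 passed an unadjusted p below 0.05. G6pc1, which releases free glucose, ran from 108 through 221 to 433 CPM without GKA and from 76.7 through 177 to 568 CPM with GKA, for a log2 fold change of 0.07 (SE 0.33). The highest value belonged to mouse 19 and the lowest to mouse 13, both with GKA. Pck1, which commits oxaloacetate to gluconeogenesis, had 415, 1161 and 1620 CPM against 227, 615 and 1489 CPM, for a log2 fold change of -0.46 (SE 0.31, 95% interval -1.11 to 0.19, edgeR p 0.154), or -0.21 with transcript lengths as an offset. It was below the mean without GKA in 8 of 10 mice with GKA, but all but 3 of the 19 mice lay within the range of the other group. Slc2a2, the glucose transporter GLUT2, had a log2 fold change of 0.01 (SE 0.08, 95% interval -0.17 to 0.18).

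ChREBP and its targets were tested as 20 genes, of which 13 were above and 7 below 0 (median 0.05), with 0 at an unadjusted p below 0.05. Mlxipl itself ran from 122 through 200.5 to 322 CPM without GKA and from 113 through 169 to 209 CPM with GKA. The log2 fold change of -0.33 (SE 0.17) did not pass (edgeR p 0.0693), although 9 of 10 mice with GKA lay below the mean without it. Mice 2, 3, 4 and 8, all without GKA, lay above every mouse with GKA. The liver pyruvate kinase gene Pklr, which is the textbook target, had 316, 674 and 874 CPM against 243, 639 and 947 CPM, and a log2 fold change of 0.05 (SE 0.22, 95% interval -0.42 to 0.52), or -0.49 with transcript lengths as an offset. Txnip, which restrains glucose uptake, had 0.28 (SE 0.27, edgeR p 0.32), or -0.10 with the offset. Its values without GKA were 17.8, 25.0 and 71.8 CPM, the highest in mouse 6, and with GKA 20.7, 27.2 and 71.6 CPM, the highest in mouse 14. The hepatokine Fgf21 had a log2 fold change of 0.53 (SE 0.36) at 3.00 ± 2.11 and 4.40 ± 2.55 CPM, and of 0.04 with mouse 7 kept.

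Genes that the study names as induced by GK overexpression in hepatocytes were all tested, 17 in number, 11 above and 6 below 0 (median 0.07). Rgs16, a regulator of G-protein signalling, spanned 14.8 to 214 CPM without and 2.88 to 206 CPM with GKA, and its log2 fold change was 0.23 (SE 0.60), or 0.58 without mice 9 and 10. Slc25a47, a mitochondrial carrier of the liver, had 0.11 (SE 0.17), and Angptl8 0.10 (SE 0.25). The study picked part of this list with liver comparisons of this series in view, so it is no independent evidence of a direction.

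Lipid synthesis had more genes above than below 0, with wide intervals. In de novo lipogenesis 14 of 16 genes were above 0 (median 0.12, against 0.00 over all genes), and 0 passed an unadjusted p below 0.05. Fasn, the fatty acid synthase, ran from 526 through 727 to 1935 CPM without GKA and from 502 through 1103 to 3174 CPM with GKA, for a log2 fold change of 0.34 (SE 0.34, 95% interval -0.37 to 1.05, edgeR p 0.331). The high mice were 2, 6 and 8 without GKA and 11, 15, 16 and 18 with it, so that each group held both low and high livers. Acly, which supplies acetyl-CoA, had 0.43 (SE 0.40), Acaca 0.18 (SE 0.31), Elovl6 0.28 (SE 0.40) and Scd1 0.25 (SE 0.26) on the log2 scale, the value for Scd1 being -0.59 with transcript lengths as an offset. For Srebf1, the insulin-responsive regulator of these enzymes, the value was 0.06 (SE 0.16).

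Triglyceride and lipid droplet genes were above 0 in 17 of 20 cases, with a median of 0.24, and 0 passed an unadjusted p below 0.05. The nearest was Plin5, which couples droplets to mitochondria, with 30.0 and 35.6 CPM and a log2 fold change of 0.25 (SE 0.12, edgeR p 0.0504). Fitm1, which aids droplet formation, had 0.37 (SE 0.19, edgeR p 0.0652), and Plin2, the main droplet coat protein of hepatocytes, 0.25 (SE 0.15, edgeR p 0.125). Cidec, which promotes the fusion of droplets, ran from 0.522 through 3.37 to 32.5 CPM without GKA and from 0.144 through 12.8 to 40.6 CPM with GKA. Mouse 6 was the highest without and mouse 13 with GKA, and the log2 fold change of 0.61 had an SE of 0.70 and was 0.33 with mouse 7 kept. With PP mice 9 and 10 left out, or with mouse 7 kept, 2 of these 20 genes passed an unadjusted p below 0.05.

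Among 14 lipoprotein genes, 9 were above 0 (median 0.06). Of the 14, 2 passed an unadjusted p below 0.05, both higher with GKA, against 1.49% of all genes. Apoc2, the activator of lipoprotein lipase, had 125, 287 and 360 CPM against 178, 373 and 615 CPM, a log2 fold change of 0.49 (SE 0.19, edgeR p 0.0168). Mouse 8 was far below the other mice without GKA, and 6 of 10 mice with GKA were above all mice without it. Apoa5, which lowers plasma triglyceride, had 817, 1015 and 1355 CPM against 1008, 1190 and 1648 CPM, for 0.28 (SE 0.11, edgeR p 0.0255) on the log2 scale. The exons of Apoc2 overlap those of Apoc2l and the exons of Apoa5 those of Gm47544, and with transcript lengths as an offset the values were 0.33 for Apoc2 and 0.00 for Apoa5, and 0 lipoprotein genes passed.

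**Figure D2:**
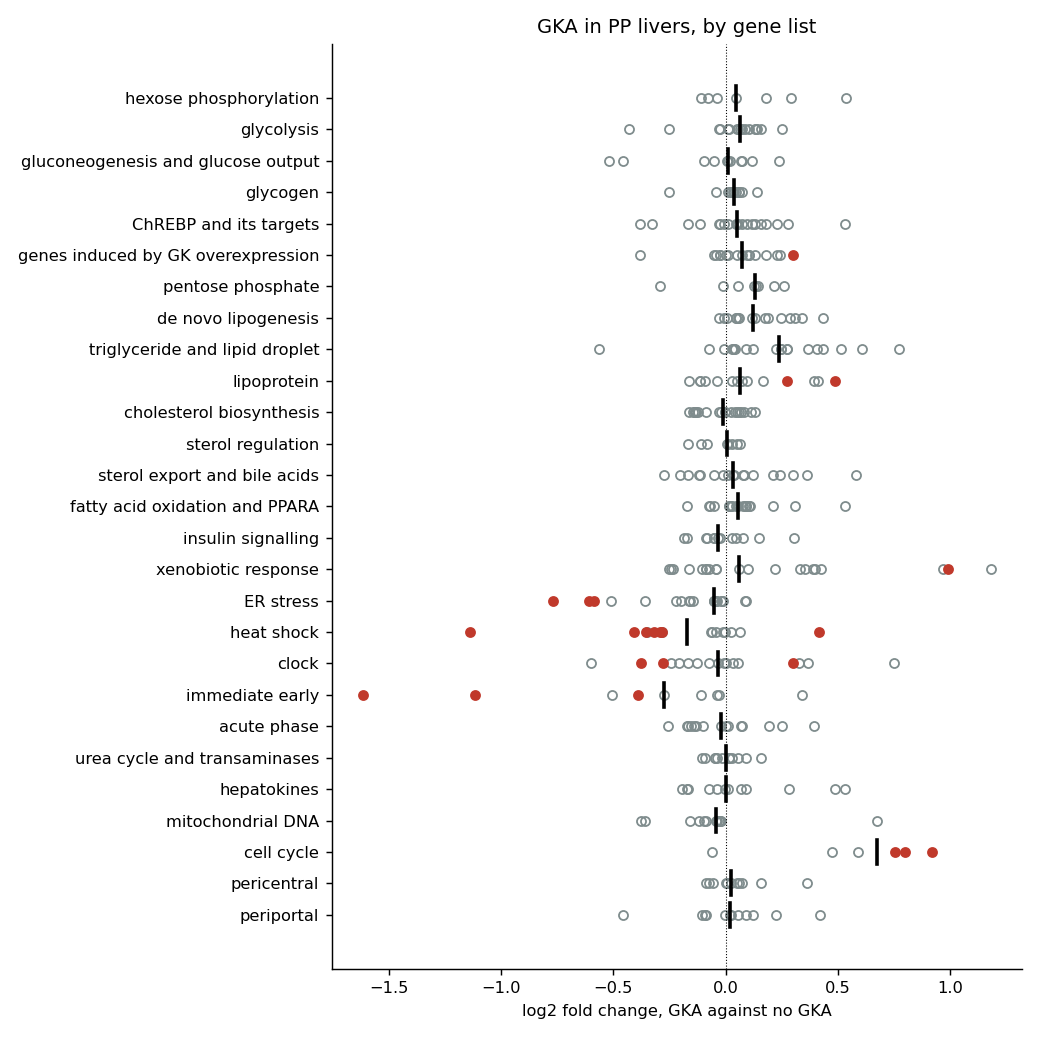
Log2 fold change with GKA of each gene tested (circles) in 27 pathway lists; red filled circles have an unadjusted p below 0.05, and black bars are list medians. Most medians lie near 0, the cell cycle median is 0.67, and the red circles below 0 belong to ER stress, heat shock, clock and immediate early genes.

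Sterol genes lay at 0. Cholesterol biosynthesis had 8 of 20 genes above and 12 below 0 (median -0.01), with 0 at an unadjusted p below 0.05, and the medians of sterol regulation (8 genes) and of sterol export and bile acids (18 genes) were 0.01 and 0.04. Mouse 2 was the highest liver for the mean of the cholesterol biosynthesis list. Insig1, which retains the sterol sensor in the ER, had a log2 fold change of -0.11 (SE 0.14), or 0.03 with the length offset, and Cyp7a1, the rate-limiting enzyme of bile acid synthesis, 0.58 (SE 0.49), or 1.12 with it. Abcg5 and Abcg8, which together export sterols into bile, both reached 162 CPM in mouse 14 with GKA, against at most 76.8 CPM in any mouse without GKA.

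Lists of other liver functions likewise had medians close to 0. Fatty acid oxidation had a median of 0.05 over 19 genes, insulin signalling -0.04 over 13 genes, the urea cycle 0.00 over 12 genes, and acute phase proteins -0.02 over 15 genes, with 0 of these genes at an unadjusted p below 0.05. The hepatokine, pentose phosphate, pericentral and periportal lists also had 0 such genes, with medians between 0.00 and 0.13. Cpt1a, the gate of mitochondrial fatty acid oxidation, had a log2 fold change of 0.03 (SE 0.13) and Igfbp1, which insulin represses, of -0.17 (SE 0.35). In the xenobiotic response, 21 of 27 genes were tested (median 0.06) and, against 3.56% of all genes, 1 passed an unadjusted p below 0.05. This was Gstm3, a glutathione transferase, which ran from 8.70 through 18.3 to 37.2 CPM without GKA and from 7.49 through 35.2 to 73.3 CPM with GKA (log2 fold change 0.99, SE 0.37, edgeR p 0.0147). Mice 13, 14, 16, 17 and 18 were above all mice without GKA, and with mouse 7 kept the value was 0.20. Cyp3a11 had 0.40 (SE 0.28, edgeR p 0.165), and Cyp2b10 had at most 5 reads per mouse and was not tested.

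Transcripts of mitochondrial DNA held 9.76 ± 1.05% of the reads without and 9.36 ± 0.87% with GKA (exact permutation p 0.372). Of the 13 genes, 12 were below 0 (median -0.04) and 0 passed an unadjusted p below 0.05.

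Of 397 listed genes tested, 22 (5.54%) passed an unadjusted p below 0.05, against 3.56% of all genes, 8 of them higher and 14 lower with GKA. Of those 14, 12 were stress or immediate early genes, in lists chosen with earlier results of these livers known. The unfolded protein response raises chaperones and degradation factors when proteins misfold in the endoplasmic reticulum (ER), and the heat shock response does so in the cytosol. Of 21 ER stress genes tested, 19 were below and 2 above 0 (median -0.05), and 3 (Ddit3, Herpud1 and Dnajb9) passed an unadjusted p below 0.05, all lower with GKA. Of 16 heat shock genes, 13 were below 0 (median -0.17), and 6 passed in the lower and 1 in the higher direction, against 2.08% and 1.49% of all genes. With mice 9 and 10 left out, which had high levels of several stress genes, 2 ER stress genes and 1 heat shock gene passed in the lower direction, and the medians were -0.01 and -0.14. Without mouse 1 alone, or mouse 10 alone, 3 heat shock genes passed in the lower direction, and without mouse 19 5 ER stress genes did. With the length offset 2 ER stress and 4 heat shock genes did. The heat shock list was put together with earlier results of these livers known, so its count is no independent evidence. None of these genes was a DEG.

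Ddit3, the pro-apoptotic factor CHOP, had 3.59 CPM in the lowest, 6.92 in the median and 10.6 in the highest mouse without GKA, and 2.45, 4.11 and 6.77 CPM with GKA. All 10 mice with GKA lay below the mean without it, and 6 of 9 mice without GKA lay above every mouse with it. The log2 fold change was -0.77 (SE 0.20, edgeR p 0.000747), and -0.61 without mice 9 and 10. The exons of Ddit3 overlap those of Mars1, Mbd6, Gm4189 and another annotated entry with the symbol Ddit3. Herpud1, a part of ER-associated degradation, ran from 226 through 388 to 684 CPM and from 207 through 257 to 335 CPM. Its log2 fold change of -0.61 (SE 0.17, edgeR p 0.00215) became -0.33 without mice 9 and 10, which had the highest values, 621 and 684 CPM. Dnajb9, an ER co-chaperone, had 24.5, 54.8 and 87.3 CPM against 15.1, 40.0 and 46.3 CPM, for -0.59 (SE 0.22, edgeR p 0.0145). Hspa5, the ER chaperone BiP, had 450.3, 1096 and 1455 CPM against 470 (mouse 17), 803 and 1587 CPM (mouse 19), and its log2 fold change of -0.22 (SE 0.23, edgeR p 0.351) was well within the spread.

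The heat shock genes with the smallest p were chaperones of the HSP70 system. Hspa1b, an inducible HSP70, had 2.56, 7.66 and 22.1 CPM without GKA and 1.03, 3.76 and 8.70 CPM with GKA, a log2 fold change of -1.14 (SE 0.35, edgeR p 0.00346). Mouse 10 was highest and mouse 17 lowest, and all 10 mice with GKA lay below the mean without it. For Hspa8, the constitutive HSP70, the values were 777, 1193 and 1497 CPM against 664, 958 and 1247 CPM (log2 fold change -0.32, SE 0.14, edgeR p 0.0331). Its co-chaperones Dnaja1 (-0.29, SE 0.11, edgeR p 0.0117), Dnajb1 (-0.36, SE 0.14, edgeR p 0.0204) and Bag3 (-0.41, SE 0.17, edgeR p 0.027) and the HSP90 partner Chordc1 (-0.28, SE 0.11, edgeR p 0.0206) had log2 fold changes of similar size. Without mice 9 and 10 the value was -0.20 for Dnajb1 and -0.26 for Bag3, and with the length offset it was -0.57 for Dnaja1. Hspb1, a small heat shock protein, was the exception at 0.42 (SE 0.17, edgeR p 0.0229), with 11.1 ± 3.02 CPM without and 14.7 ± 4.50 CPM with GKA. Hspa1a, the near-identical copy of Hspa1b, had at most 8 reads per mouse, so the split of reads between these copies is uncertain.

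As most genes tested of each stress list lay below 0, the promoters of 1 gene of each are shown, taken from RefSeq (GRCm38.p6), with a stress motif known from such promoters in capitals. The first stretch, chr2:34772015-34772053 on the plus strand, runs from 75 to 37 bases before the start of Hspa5 and holds the ER stress element, CCAAT and CCACG with 9 bases of any kind between them. The second, chr17:34959325-34959352 on the minus strand, runs from 114 to 87 bases before the start of Hspa1b and holds the heat shock element GAANNTTC.
Hspa5: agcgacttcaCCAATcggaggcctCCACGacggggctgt
Hspa1b: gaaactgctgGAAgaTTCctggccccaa
In the 250 bases before the start, on either strand, the ER stress element was found in 7 of 21 promoters of the ER stress list and in 0.122% of 27025 promoters. It was found in that of Hspa5 but not within this window of Ddit3, Herpud1 or Dnajb9. GAANNTTC was found in 6 of 14 promoters of the heat shock list and in 6.78% of all promoters. The 6 included Hspa1b and Dnaja1, lower with GKA, and Hspb1, higher with GKA. The inverted heat shock form TTCNNGAA was found in 2 of 14 promoters of the heat shock list and in 7.1% of all promoters. Neither form was found within this window of Dnajb1, Bag3 or Chordc1, all lower with GKA, and no promoter was available for Hspa8. The ER stress element contains the CCAAT box. That box alone was found in 17 of 21 ER stress and 6 of 14 heat shock promoters, and in 34.5% of all promoters.

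**Figure D3:**
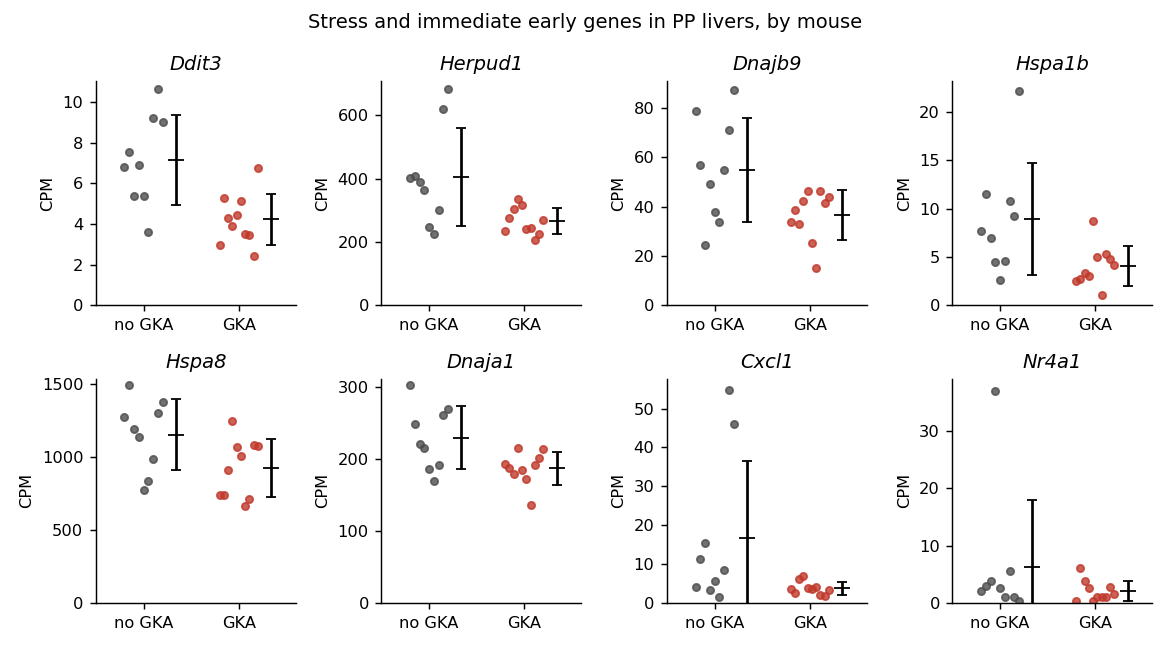
CPM of 8 stress, chemokine and immediate early genes in each PP liver, without GKA (grey, 9 mice) and with GKA (red, 10 mice). Bars are mean ± SD and are clipped at 0 for Cxcl1 and Nr4a1. Herpud1 and Cxcl1 are high in mice 9 and 10 without GKA, and Nr4a1 is high in 1 mouse, mouse 4.

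Immediate early genes respond within minutes to signals and to handling of tissue. Of 13 listed, 9 were tested, 1 above and 8 below 0 (median -0.27). Of these, 3 passed an unadjusted p below 0.05, all lower, against 2.08% of all genes. The 4 not tested had few reads. Fos had medians of 5 and 5.5 reads per mouse without and with GKA, and Ier3 of 1 and 2.5. Fosb had 1 and 1, and Egr1 0 and 0. Nr4a1, an orphan nuclear receptor, had a log2 fold change of -1.61 (SE 0.69, edgeR p 0.0294) that rested on mouse 4 at 37.0 CPM. The other mice without GKA had at most 5.65 CPM, and without mouse 4 the value was -0.22 (edgeR p 0.66). Socs3, the feedback inhibitor of cytokine signalling, had 1.27, 10.1 and 23.0 CPM against 1.42, 2.46 and 12.0 CPM (log2 fold change -1.12, SE 0.49, edgeR p 0.0318). Its value was -0.62 without mice 9 and 10 and -0.32 with the length offset. Zfp36, which destabilises mRNA, had -0.39 (SE 0.18, edgeR p 0.046). Cxcl1, a chemokine for neutrophils, was at 1.41, 8.56 and 54.8 CPM without GKA and 1.87, 3.58 and 6.84 CPM with GKA, for -2.11 (SE 0.54, edgeR p 0.000847). Mice 9 and 10 held 54.8 and 46.1 CPM, and without them the value was -0.87. In the fit of all 6 groups Cxcl1 was the 1 DEG (adjusted p 0.0385).

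Among 17 clock genes tested, 7 were above and 10 below 0 (median -0.03). In the lower direction 2 genes passed an unadjusted p below 0.05, against 2.08% of all genes. Bhlhe40, a repressor of the clock, had -0.38 (SE 0.16, edgeR p 0.0311), and Hlf, an output factor, -0.28 (SE 0.13, edgeR p 0.0435). With the length offset the values were -0.25 for Bhlhe40 and 0.07 for Hlf, and 0 clock genes passed. Dbp, which swings strongly over the day, ran from 7.39 through 12.9 to 31.5 CPM without GKA and from 0.432 through 10.0 to 62.0 CPM with GKA, with a log2 fold change of 0.33 (SE 0.59), or 0.59 without mice 9 and 10. Mouse 19 was the lowest and mice 13, 14 and 20 were the highest, all with GKA. Rgs16 was highest in mice 6, 13 and 17 and lowest in mouse 19. With the first principal component of 17 clock genes as a covariate, 0 genes were called and 478 passed an unadjusted p below 0.05. As the labels give no time of harvest, the part of the time of day was not tested.

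Cell cycle genes had the highest median of all lists, 0.67, but only 6 of 14 were expressed enough to be tested. Of these, 3 passed an unadjusted p below 0.05, all higher, against 1.49% of all genes. The 8 not tested, such as Top2a and Ccne2, had medians of 3 to 8 reads per mouse without and 2.5 to 8 with GKA. All 14 summed to 29.6 to 60.2 CPM (median 45.5) without GKA and 34.1 to 119 CPM (median 52.2) with GKA. In mouse 7, without GKA and left out of the comparison, they summed to 110 CPM. Ccnd1, which drives entry into the cycle, had 8.91, 16.9 and 29.0 CPM without GKA and 11.9, 21.7 and 51.8 CPM with GKA (log2 fold change 0.80, SE 0.30, edgeR p 0.0158), and 0.43 with mouse 7 kept. Mice 14, 16, 17 and 18 stood above every mouse without GKA. The replication helicase genes Mcm5 (0.92, SE 0.37, edgeR p 0.0217) and Mcm6 (0.76, SE 0.35, edgeR p 0.0415) lay between 0.302 and 8.21 CPM and were highest in mice 16 and 18. Pcna, at 15.0 and 14.4 CPM, had a log2 fold change of -0.06 (SE 0.10). With mouse 7 kept, 1 cell cycle gene passed and the median was 0.41, and without mouse 16 or without mouse 18 1 gene passed, with medians of 0.62 and 0.46.

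Markers of other liver cells were compared in the same way. Of 15 macrophage markers tested, 12 were above 0 (median 0.24) and 0 passed an unadjusted p below 0.05, and the 18 markers listed summed to 232 to 460 CPM (median 288) without GKA and 271 to 506 CPM (median 374) with GKA. Cd68, a lysosomal marker of macrophages, had 0.37 (SE 0.20, edgeR p 0.0713), or 0.13 with mouse 7 kept. In such whole-liver RNA, more cells of a type and more RNA per cell cannot be told apart. Genes of MHC class II antigen presentation, singled out after their values were seen, had positive values: H2-Eb1 had 0.81 (SE 0.24, edgeR p 0.00277), H2-Ab1 0.62 (SE 0.22, edgeR p 0.00982), Cd74 0.57 (SE 0.18, edgeR p 0.0056) and H2-Aa 0.53 (SE 0.22, edgeR p 0.0235). The exons of H2-Aa overlap those of H2-Eb1. Cd74 ran from 22.1 through 44.7 to 53.8 CPM without GKA and from 39.7 through 52.5 to 91.1 CPM with GKA, with mice 14 and 16 the highest. With mouse 7 kept, which had the highest macrophage sum (591 CPM), the values were 0.35 for Cd74, 0.35 for H2-Ab1 and 0.27 for H2-Aa, and with the length offset that for H2-Ab1 was 0.06. The part of macrophages or B cells in these values was not tested.

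The other marker lists gave no gene at an unadjusted p below 0.05. Stellate and fibrosis markers had 9 of 11 genes above 0 (median 0.10) and summed to 139 to 250.2 CPM without and 129 to 251 CPM with GKA. Col1a1, the main fibrillar collagen gene, had 0.46 (SE 0.53), or 0.10 with mouse 7 kept and -0.50 with the length offset. Endothelial and blood markers both had medians of 0.01. Markers of bile duct, T cells, neutrophils, adipose tissue and muscle summed to at most 6.48 CPM in any of the 19 livers, and those of B cells to at most 27.2 CPM and of pancreas to at most 38.8 CPM. Adipoq, Lep and Plin1 (adipose tissue), Cpa1, Pnlip, Ctrb1 and Ins2 (pancreas), Ckm and Tnnt3 (muscle) and Ly6g (neutrophils) had 0 reads in all 19 livers.

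The 8 genes of each direction with the smallest unadjusted p were mostly low in expression. Among those higher with GKA, Osbpl2, an oxysterol-binding protein that moves lipids between membranes, was the 1 gene whose ranges did not overlap. It ran from 13.4 through 14.1 to 14.5 CPM without GKA and from 15.0 through 16.3 to 19.6 CPM with GKA, for a log2 fold change of 0.24 (SE 0.06, edgeR p 0.000713). Tsen54, a subunit of the tRNA splicing endonuclease, had 1.74, 2.27 and 2.86 CPM against 2.73, 3.25 and 4.10 CPM (0.53, SE 0.13, edgeR p 0.000374), and 8 of 10 mice with GKA were above all mice without it. Itgb5, an integrin subunit, had 50.5 ± 4.29 and 62.4 ± 8.01 CPM (0.31, SE 0.08, edgeR p 0.000744). The remaining genes were Armc10 (0.64), Enox2 (0.40), Lmo2 (0.67), Tm4sf1 (0.55) and B9d2 (0.78), all under 10 CPM in every mouse.

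On the other side, Ppp1r13l, an inhibitor of p53, had 1.77, 2.42 and 3.23 CPM without GKA and 0.202, 1.16 and 2.01 CPM with GKA. Its log2 fold change was -1.03 (SE 0.21, edgeR p 8.2e-05), and 9 of 10 mice with GKA were below all mice without it. Ngdn, a factor of ribosome biogenesis, had 13.2 ± 2.29 and 10.3 ± 1.25 CPM (-0.36, SE 0.10, edgeR p 0.00197). Vasn (-0.62), the zinc finger gene Zfp595 (-0.54) and Taf7 (-0.67), a subunit of TFIID, were at most 7.38 CPM in any mouse, and Ddit3, Cxcl1 and Herpud1 completed the 8. The exons of Ppp1r13l overlap those of Polr1g, of Armc10 those of Napepld, of Vasn those of Dnaja3 and of B9d2 those of Tmem91. With transcript lengths as an offset the value was 0.25 for B9d2 and -0.54 for Ngdn.

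To ask whether GKA acted otherwise in livers with the 446L allele, the effect in PP was set against that in PL and in LL in a fit of all 6 groups, both comparisons sharing the PP livers. Against PL, 0 of 11477 genes differed at an adjusted p below 0.05 and 366 (3.19%) at an unadjusted p below 0.05. Against LL the numbers were 0 and 697 (6.07%), and the smallest adjusted p were 0.735 and 0.158. By DESeq2, 2 and 4 genes differed, all of them ribosomal pseudogenes or gene models. The genes with the smallest p against PL were Fbxo33, an F-box protein (PP minus PL -0.79, SE 0.20, edgeR p 0.00032), Cdc40, a splicing factor (-0.50, SE 0.13, edgeR p 0.00033), and Heyl, a Notch target (1.51, SE 0.40, edgeR p 0.000445). Against LL they were Wdr75, of ribosome biogenesis (-0.65, SE 0.14, edgeR p 1.38e-05), the deubiquitinase gene Mindy3 (-0.52, SE 0.12, edgeR p 7.04e-05) and the porphyrin transporter gene Abcb6 (0.38, SE 0.09, edgeR p 0.000137). Wdr75 went from 6.63 ± 0.873 to 5.28 ± 0.777 CPM with GKA in PP and from 5.47 ± 0.572 to 6.82 ± 0.899 CPM in LL.

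For the core genes of glucose and lipid metabolism the effect in PP was also placed beside those in PL and LL. Gckr had log2 fold changes of -0.11, -0.10 and 0.00 in PP, PL and LL. Pklr had 0.06, 0.20 and 0.11, and Fasn 0.34, 0.32 and -0.18. Pck1 (-0.45 in PP, 0.45 in PL, difference -0.91, edgeR p 0.0299) differed between PP and PL at an unadjusted p below 0.05, and none of the core genes between PP and LL. Of the cholesterol biosynthesis list 9 of 20 genes differed between PP and PL at that threshold, against 3.19% of all genes, and 0 between PP and LL. The median changes of this list were -0.01 in PP, 0.56 in PL and 0.17 in LL.

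**Figure D4:**
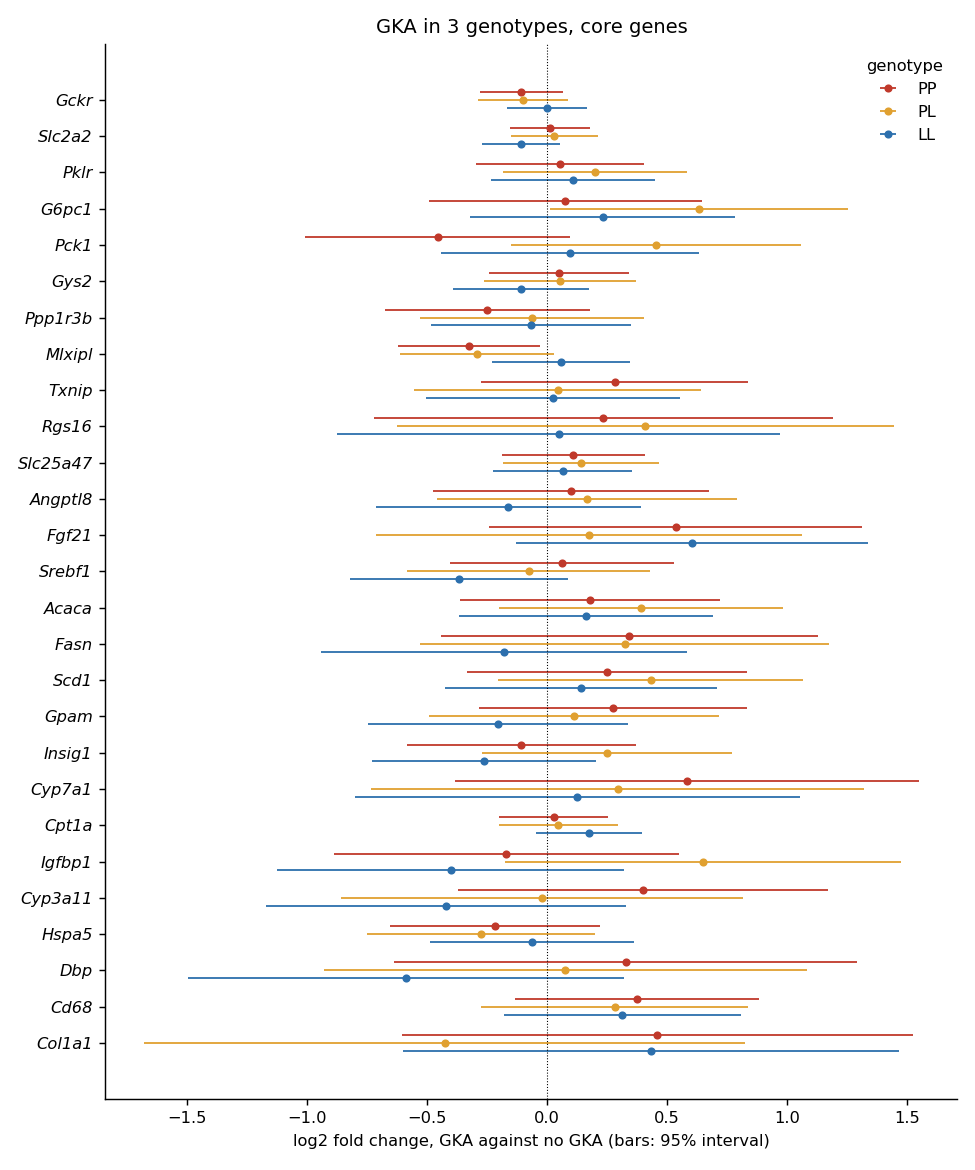
Log2 fold change with GKA of 27 core genes in PP (red), PL (yellow) and LL (blue) livers, with 95% intervals, from the fit of all 6 groups. All intervals include 0 but that of Mlxipl in PP and that of G6pc1 in PL, and the intervals of PP, PL and LL overlap for every gene; Pck1 lies below 0 in PP and above 0 in PL.

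The spread within each group exceeded the difference between them for lipogenesis. De novo lipogenesis genes, as the mean of centred log2 CPM, ran from -0.53 in mice 4 and 5 to 0.71 in mouse 6 without GKA and from -0.77 in mouse 12 to 0.91 in mouse 16 with GKA. Their means were -0.07 ± 0.48 and 0.06 ± 0.56. Mouse 16, with GKA, was the highest of the 19 for 10 of the lists, among them glycolysis, ChREBP targets, GK-induced genes and macrophage markers. Triglyceride and lipid droplet genes were highest in mice 13 and 6 and lowest in mice 19 and 3, and acute phase genes in mice 9 and 5 and in mice 4 and 2. ER stress genes were highest in mice 9 and 10 (0.52 and 0.49) and lowest in mouse 6 (-0.62), all without GKA.

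**Figure D5:**
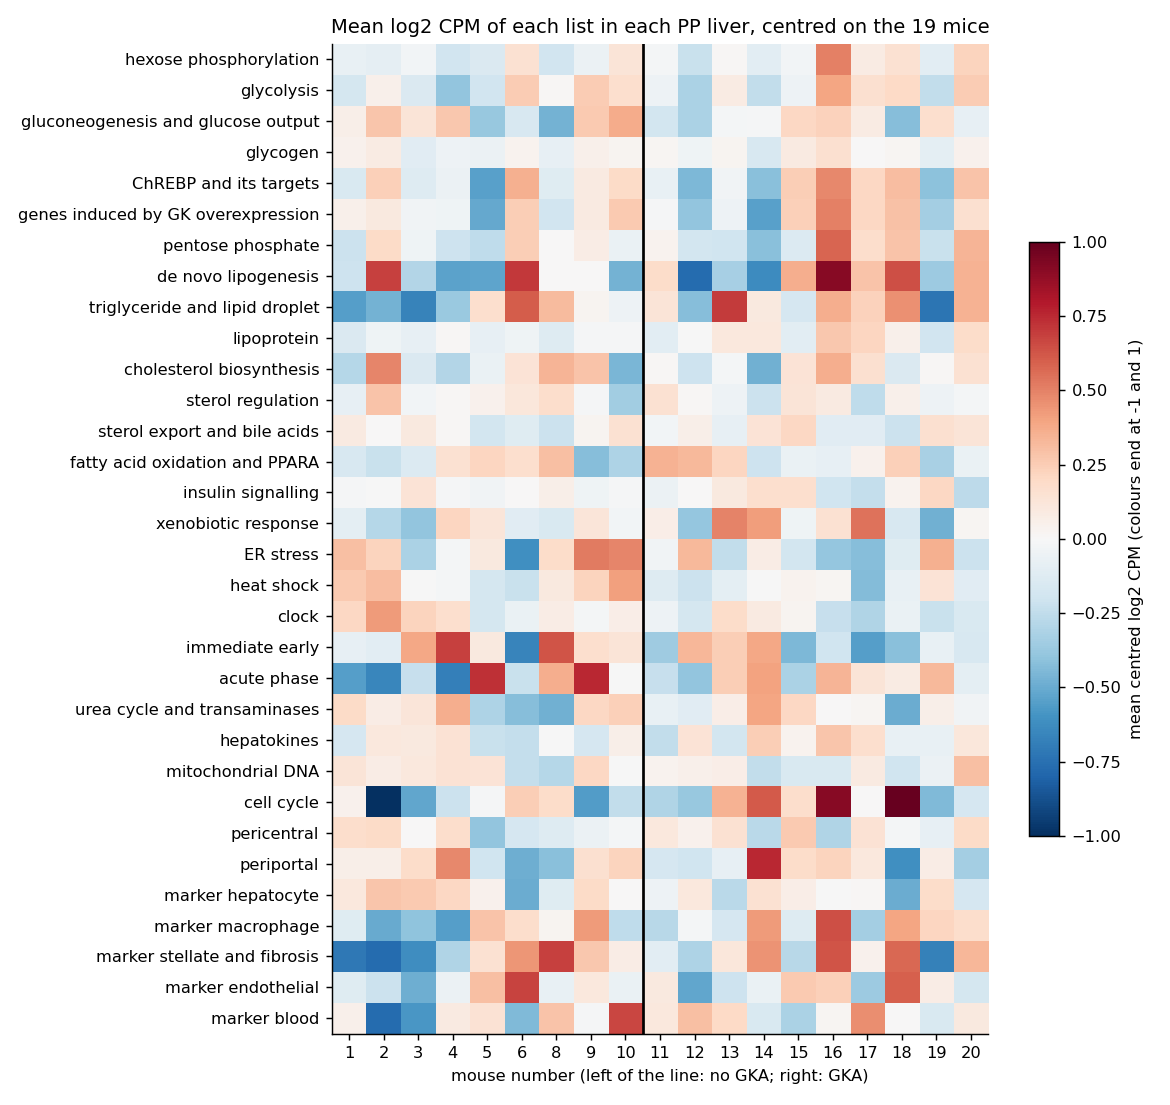
Mean centred log2 CPM of each list with at least 5 genes tested (rows) in each PP liver (columns), mice without GKA to the left of the line and with GKA to the right. Red is above and blue below the mean of the 19 mice, with colours ending at -1 and 1; high and low livers occur in both groups, and mouse 16 is red for lipogenesis and glycolysis.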

How the data were processed

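RNA of liver from 56 mice was extracted with Trizol and RNeasy, and RNA with a RIN above 6 was sequenced, per the labels. The authors quantified transcripts with Salmon 1.4.0 on GRCm39, per their processing notes, and deposited for each mouse the estimated count (expected count) and the TPM of 139225 transcripts. The TPM values, which the authors' tool divides by effective transcript length, were used for transcript shares and for an alternative of the mitochondrial share. They also weighted the transcript lengths of each gene in the length offset, so values with that offset rest on the split of reads between transcripts.

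Estimated counts were summed per gene with GENCODE vM39, which matched 137570 transcripts (98.8%) and 99.8% of the reads, and rounded. Groups were compared with edgeR 4.0.16 in R 4.3.3 (TMM, filterByExpr, quasi-likelihood test, Benjamini-Hochberg adjustment), on the 9 and 10 PP livers alone, and the differences between genotypes in 1 fit of all 6 groups. CPM used TMM, and log2 CPM a prior count of 2. The 5 single quantities were compared by exact permutation of the 92378 regroupings (SciPy 1.17.1) and adjusted together. The test scripts were tested on simulated data. No 2 mice of a group had the same counts within sampling noise (chi-square of at least 18.4 per degree of freedom over 81 pairs). The labels do not state litters or batches. Depth ran from 5.18 to 7.72 M reads per mouse, and intervals reflect the spread between mice.

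Genes named are 31 core genes, the 8 genes of each direction with the smallest unadjusted p, list members with an unadjusted p below 0.05, and the 3 genes with the smallest p in each test between genotypes, passing over clone and model names. Single genes given for a list beyond these, such as Galk1, Plin5, Fitm1, Pcna and the MHC class II genes, were chosen after their values were seen. The comparison, the 27 pathway and 12 marker lists and the heat shock list in particular were chosen with earlier results of these data known. Alternatives were DESeq2 1.42.0, its size factors, no filter, mouse 7 kept, all 6 groups in 1 fit, a transcript length offset, a clock component as covariate, no fold threshold, and each mouse left out. The DESeq2 fit of 6 groups and the fit without mice 9 and 10 were added after seeing the data. Results that rest on some of the listed genes are not reported here.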

Additional observations from a re-analysis of the deposited data

Results flagged for a closer look

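In 13 of 180 sets of mice (86 genes and 4 single quantities, each in both groups, genes on the log2 scale), 1 mouse stood apart from the others by Dixon's criterion, where chance at 5% gives 9. Without GKA, mouse 8 was low for Apoc2 (125 CPM) and high for Hspb1 (18.4 CPM), mouse 2 was low for Mcm6 (0.302 CPM) and Enox2 (3.93 CPM), mouse 6 was high for Txnip (71.8 CPM) and mouse 3 was low for Armc10 (1.22 CPM). With GKA, mouse 17 was low for Dnaja1 (136 CPM), mouse 19 was low for Armc10 (1.87 CPM) and Slc25a47 (187 CPM), mouse 14 was high for Abcg5 (162 CPM) and low for the cholesterol synthesis gene Hmgcs1 (54.7 CPM), mouse 16 was high for Vasn (4.51 CPM) and mouse 15 was low for Ppp1r13l (0.202 CPM).

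Mouse 7, which the comparison leaves out, had higher summed levels of 3 marker lists than any of the other 9 PP mice without GKA. These were macrophage markers at 591 CPM, stellate and fibrosis markers at 309 CPM and neutrophil markers at 1.99 CPM.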

How the results depend on the processing

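No DEG was found with DESeq2 size factors, without the filter, with mouse 7 kept, with the length offset, with the clock covariate, without the fold threshold, or with any 1 mouse left out (0 to 0). DESeq2 called 2 genes, the fit of all 6 groups 1 (Cxcl1), and DESeq2 with all 6 groups 7. Those 7 were Cxcl1, Cyp26a1 and gene models or ribosomal pseudogenes. Genes at an unadjusted p below 0.05 numbered 1134 of 23990 tested without the filter, 646 of 10548 with the length offset and 584 of 27451 by DESeq2 with all 6 groups. With 1 mouse left out they numbered 299 to 575, the highest (575 of 10602) without PP mouse 6. With the length offset 30.0% of them were higher with GKA, against 41.8% without it, 9 of 85 named genes and the medians of 9 of 36 lists changed sign, and Scd1 had -0.59, Gys2 -1.02, Pklr -0.49 and Gckr -0.50. The cause was not tested. DESeq2 called 2 genes for the difference between PP and PL and 4 for that between PP and LL. With 1 mouse left out, the difference in total reads ran from -12730.5 to 288113 reads, in genes detected from -138.5 to 46.9, and in the Gckr-202 share from 7.44 to 11.4 percentage points, the latter past the threshold without PP mouse 9. No paired analysis was possible because each mouse has a number of its own and the groups share none. At 5.18 to 7.72 M reads per mouse, genes of a few CPM rest on few reads.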
